A study of Homo sapiens with 18 samples.

Results

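The ID genes and the genes that carry and restrain bone morphogenetic protein (BMP) signalling were followed through 18 RNA sequencing libraries of MDA-MB-231 cells, an established human breast cancer line. The 10 genes were chosen by symbol: ID1, ID2, ID3 and ID4; the inhibitory SMADs SMAD6 and SMAD7; the BMP-regulated SMAD SMAD9; the decoy receptor BAMBI; the ligand BMP4; and the type II receptor BMPR2. Each symbol matched 1 of the 62830 rows of the deposited gene table. The study compared cells with a TRIM27 knockout and wild-type cells, in the context of an axis of TRIM27, PARP1 and PAX6 in invasion and metastasis. TRIM27 is a ubiquitin ligase, and PARP1 is the main enzyme that makes poly(ADP-ribose) at DNA breaks. The 6 groups of 3 libraries were TRIM27-knockout and wild-type cells given olaparib (an inhibitor of the PARP enzymes, 2 µM for 24 h), knockout and wild-type cells given siRNA against PARP1 (siPARP1, labelled 100 pM, 48 h), and knockout and wild-type cells without treatment. The untreated cells were the controls for both treatments, since no library used here carries a DMSO or non-targeting siRNA label. Effects of transfection or solvent thus cannot be told apart from those of siPARP1 or olaparib. The labels do not say how the knockout was made or whether it is a single clone, nor whether each library stands for a culture of its own.

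BMP ligands bind a complex of type I and type II serine/threonine kinase receptors, which phosphorylates the SMAD proteins SMAD1, SMAD5 and SMAD9. These join SMAD4, enter the nucleus and switch on target genes, of which ID1, ID2 and ID3 are among the best known in many cell types. ID proteins have a helix-loop-helix domain but no DNA-binding region, so they pair with E proteins and keep them off DNA; in breast cancer ID1 and ID3 have been studied for their part in metastasis. SMAD6, SMAD7 and BAMBI are themselves targets of the pathway or of TGF-beta and damp it.

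Values are FPKM (fragments scaled to transcript length and library size), so that levels may be set side by side between genes. The absolute depth cannot be had from such values. They summed to 812699 to 910313 in a library, and the steps between low values put the relative depth at 0.749 to 1.238 times that of untreated wild-type library 1. Mesenchymal markers of the line were high, with 1560 to 2710 FPKM of VIM and 70.5 to 139 FPKM of AXL, while of the epithelial and luminal markers CDH1, EPCAM, ESR1 and PGR stayed at or under 0.31 FPKM and KRT8 (284 to 1580 FPKM), KRT18 (491 to 1250 FPKM) and GATA3 (13 to 31.6 FPKM) were high; the leukocyte marker CD3E was listed at 0 in every library. TRIM27 RNA averaged 0.623 ± 0.0663 FPKM in untreated knockout cells and 1.45 ± 0.243 FPKM in untreated wild-type cells (SD, n = 3). PARP1 RNA averaged 9.25 ± 0.472 FPKM in siPARP1 knockout cells, against 55.2 ± 3.70 FPKM in untreated knockout cells, and 10.7 ± 0.883 FPKM in siPARP1 wild-type cells, against 56.2 ± 2.57 FPKM in untreated wild-type cells. It was also lower under olaparib, at 40.1 ± 1.23 FPKM in knockout and 38.8 ± 2.74 FPKM in wild-type cells. Unnamed loci held 43.9% of the FPKM in siPARP1 knockout cells and 45.4% in siPARP1 wild-type cells, 45.1% and 46.8% in olaparib-treated knockout and wild-type cells, and 48.8% and 49.3% in untreated knockout and wild-type cells. Mitochondrial genes held 27.6% and 25.8% of the FPKM of named genes in siPARP1 knockout and wild-type cells, 24.5% and 24.8% under olaparib, and 19.7% and 21.2% without treatment; the part of these shifts in the results was not tested. With named genes alone scaled to a fixed sum (the TPM scale), the calls of the 7 tested genes were kept except those of BMPR2 under olaparib.

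Of the 10 genes, 7 passed the filter of at least 1 FPKM in at least 3 libraries, and they were tested with limma among 15764 genes. ID4 was listed at 0 FPKM in all 18 libraries. SMAD6 and SMAD9 stayed below 0.5 FPKM in every library and are described from a fit without the filter. A gene was called where its adjusted p, by the Benjamini-Hochberg method over all tested genes, lay under 0.05. Log2 changes are of FPKM + 1, which understates the change of low genes. Each library is the RNA of a whole culture, so more RNA per cell and more cells that express a gene cannot be told apart.

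Both treatments were followed by higher ID1 and ID2, whereas ID3 was called higher under siPARP1 and BAMBI and BMP4 under olaparib. Under olaparib, 6 of the 7 tested genes were called in knockout cells, all higher, where 47.2% of all tested genes were called, 25.2% higher and 22% lower. The same count held in wild-type cells, with 6 of 7 called higher against a background of 45.4% called, 24.9% higher and 20.4% lower. Under siPARP1, knockout cells had 3 of the 7 called higher and 3 lower, with 54.7% of all genes called, 31.9% higher and 22.8% lower. In wild-type cells 4 were called higher and 1 lower, with 51.7% of all genes called, 29.5% higher and 22.3% lower. The median log2 change of the 7 genes was 0.80 in olaparib-treated knockout cells and 1.27 in olaparib-treated wild-type cells, beside 0.03 over all tested genes in both. It was 0.33 in siPARP1 knockout cells and 0.56 in siPARP1 wild-type cells, beside 0.07 over all tested genes in both. On the TPM scale 14798 named genes were tested, in place of 15764 genes in FPKM. Their calls under siPARP1 split into 3504 higher and 4567 lower in knockout cells, against 5034 and 3588 in FPKM. In wild-type cells they split into 3252 higher and 4327 lower on the TPM scale, against 4649 and 3508 in FPKM, and the median log2 change of all genes moved to -0.04 on the TPM scale, against 0.07 in FPKM; in knockout cells it moved to -0.05, against 0.07. Under olaparib the balance over all genes also turned on the TPM scale, with 3069 higher and 3989 lower in knockout cells, against 3974 and 3469 in FPKM, and 3187 and 3585 in wild-type cells, against 3932 and 3219 in FPKM. The olaparib and siPARP1 comparisons of a genotype share their untreated libraries.

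**Figure D1:**
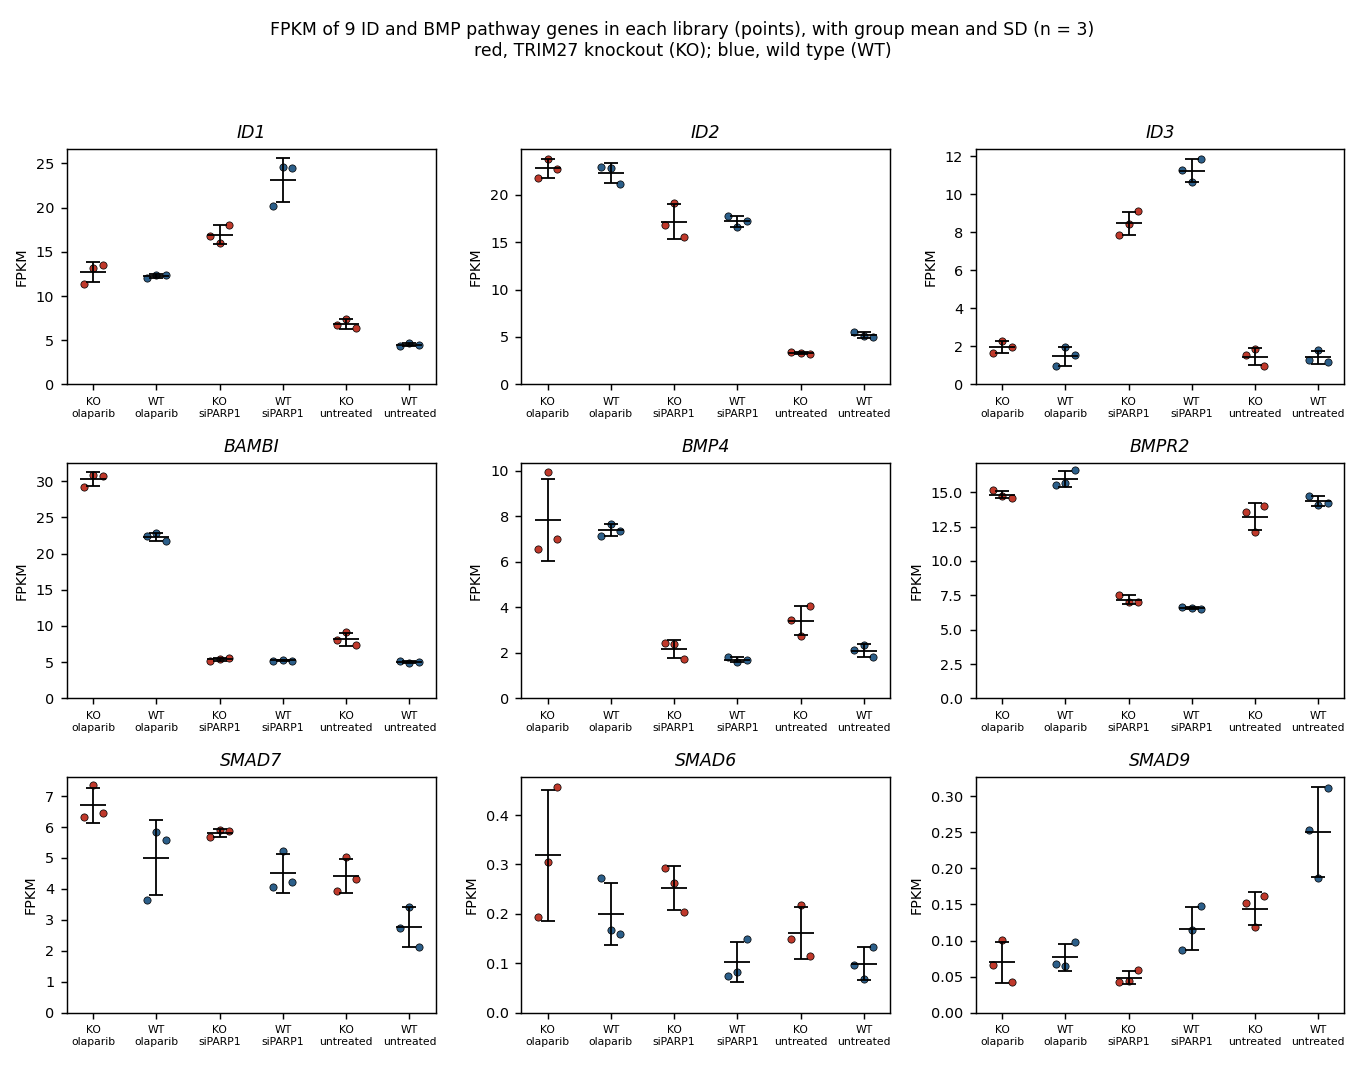
FPKM of the 9 genes with a value above 0 in each library (points; red, TRIM27 knockout; blue, wild type), with the mean and SD of each group of 3. ID1 and ID2 stood above the untreated groups in all 4 treated groups, ID3 in both siPARP1 groups, and BAMBI and BMP4 in both olaparib groups, while BMPR2 was near 7 FPKM in the siPARP1 groups.

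The start regions of ID1, ID2 and ID3 are shown because these 3 genes rose by the largest folds under siPARP1 of the 10 described. Each is 300 bases, 250 before and 50 after the annotated start, from RefSeq on GRCh38.p14, written 5′ to 3′ on the gene's own strand. Capitals mark matches to motifs that were searched on both strands: GGCGCC (a BMP SMAD element), GTCTAGAC (the SMAD palindrome), GTCTG or its complement CAGAC (the short SMAD site), GCGTGGGCG (EGR), TGACGTCA (CREB) and CCATNTT (the YY1 core). None of these 6 motifs contains another.
ID1 promoter, chr20:31605039-31605338, plus strand: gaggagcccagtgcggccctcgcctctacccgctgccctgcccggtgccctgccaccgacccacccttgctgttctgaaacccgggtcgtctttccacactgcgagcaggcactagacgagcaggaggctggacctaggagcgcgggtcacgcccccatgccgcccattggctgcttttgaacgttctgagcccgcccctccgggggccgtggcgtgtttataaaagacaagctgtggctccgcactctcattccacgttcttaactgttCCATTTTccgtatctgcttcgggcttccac
ID2 promoter, chr2:8681806-8682105, plus strand: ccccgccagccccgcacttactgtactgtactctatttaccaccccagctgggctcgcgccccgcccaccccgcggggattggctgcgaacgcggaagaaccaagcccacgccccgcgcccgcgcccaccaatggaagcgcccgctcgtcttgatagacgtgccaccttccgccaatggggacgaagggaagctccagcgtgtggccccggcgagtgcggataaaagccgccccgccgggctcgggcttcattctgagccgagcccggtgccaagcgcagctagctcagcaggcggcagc
ID3 promoter, chr1:23559452-23559751, minus strand: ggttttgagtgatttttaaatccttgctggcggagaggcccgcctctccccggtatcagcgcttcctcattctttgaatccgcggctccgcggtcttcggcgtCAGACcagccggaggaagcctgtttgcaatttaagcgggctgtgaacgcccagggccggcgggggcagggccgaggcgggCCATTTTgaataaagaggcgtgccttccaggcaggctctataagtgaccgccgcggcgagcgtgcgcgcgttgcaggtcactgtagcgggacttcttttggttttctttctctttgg
ID1 holds 1 match to CCATNTT at position 21, and ID3 holds 1 at position -67 and CAGAC at position -147. The first of the 50 bases after the start was counted as 1 and no base as 0. ID2 holds none of the 6 motifs in this window. Over the 35116 promoters of the table, 15.6% hold CCATNTT and 45.3% hold the short SMAD site. A match to such letters is a description of the sequence and not evidence of a bound factor.

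ID1 (ENSG00000125968, chromosome 20, 31605283 to 31606515, plus strand) was higher in every treated group than in untreated cells. In olaparib-treated knockout cells it measured 11.4, 13.1 and 13.5 FPKM, against 6.71, 7.45 and 6.40 FPKM in untreated knockout cells. In olaparib-treated wild-type cells it measured 12.0, 12.4 and 12.4 FPKM, against 4.29, 4.65 and 4.49 FPKM in untreated wild-type cells. The treated libraries lay above the untreated ones in both genotypes, with no overlap. Under siPARP1 the values were 16.8, 16.0 and 18.1 FPKM in knockout cells and 20.2, 24.6 and 24.4 FPKM in wild-type cells, again clear of the untreated libraries. Under olaparib ID1 rose 1.85-fold in knockout cells (log2 0.80, SE 0.080, limma adjusted p = 1.55e-06) and 2.74-fold in wild-type cells (log2 1.27, adjusted p = 1.24e-08). Under siPARP1 it rose 2.47-fold in knockout cells (log2 1.19, adjusted p = 1.40e-08) and 5.16-fold in wild-type cells (log2 2.13, adjusted p = 4.91e-11). In wild-type cells under siPARP1, 18 of the 15764 tested genes had a larger log2 change.

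The response of ID1 to siPARP1 differed by genotype. The change in knockout cells was smaller than that in wild-type cells by 0.94 on the log2 scale (interaction -0.94, SE 0.114, limma adjusted p = 0.000192). The knockout level stood above wild type without treatment, at 6.85 ± 0.537 FPKM in knockout and 4.48 ± 0.182 FPKM in wild-type cells (SD, n = 3; log2 0.52, adjusted p = 0.000342). Under siPARP1 the order was turned round, with 17.0 ± 1.04 FPKM in knockout and 23.1 ± 2.49 FPKM in wild-type cells (log2 -0.42, adjusted p = 0.00164). Under olaparib the genotypes overlapped, at 12.7 ± 1.14 FPKM in knockout and 12.3 ± 0.224 FPKM in wild-type cells (log2 0.04, limma adjusted p = 0.809). The olaparib interaction of ID1 (-0.475, adjusted p = 0.0369) was lost without the filter (adjusted p = 0.0711), with regional medians removed (adjusted p = 0.051) and in 10 of the 12 fits that left out a library.

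ID1 has 2 annotated transcripts. ID1-202 is spliced from 2 exons (994 bases), and ID1-201 is a single exon of 1233 bases that keeps the intron. ID1-201 measured 4.97, 3.62 and 3.03 FPKM in olaparib-treated knockout cells, against 0.690, 0.402 and 0.0997 FPKM in untreated knockout cells. In olaparib-treated wild-type cells it measured 3.88, 4.73 and 3.71 FPKM, against 0.317, 0.546 and 0.950 FPKM in untreated wild-type cells. No treated library overlapped an untreated one. Under olaparib ID1-201 rose in knockout cells (log2 1.81, SE 0.214, limma adjusted p = 5.59e-05) and in wild-type cells (log2 1.68, adjusted p = 0.00011). ID1-202 was called under olaparib in wild-type cells (log2 0.91, adjusted p = 0.000626) but missed the threshold in knockout cells (log2 0.37, adjusted p = 0.113). Under siPARP1, ID1-202 rose in knockout cells (log2 1.08, adjusted p = 8.7e-05) and wild-type cells (log2 2.13, adjusted p = 1.43e-07), and ID1-201 rose by a log2 of 1.19 in both (adjusted p = 0.00126 in knockout and 0.00147 in wild-type cells). The share of ID1 assigned to the intron-retaining form averaged 31.2 ± 11.1% in knockout and 33.5 ± 4.26% in wild-type cells under olaparib, 12.7 ± 2.40% and 11.6 ± 3.24% under siPARP1, and 5.74 ± 4.37% and 13.4 ± 7.03% without treatment (SD, n = 3). Among 44746 tested transcripts, 12.6% were called under olaparib in knockout and 11.4% in wild-type cells, and 18.9% under siPARP1 in knockout and 15.7% in wild-type cells. Assigning reads to forms that share most of their length is an estimate, and whether unspliced RNA enters these values was not tested.

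**Figure D2:**
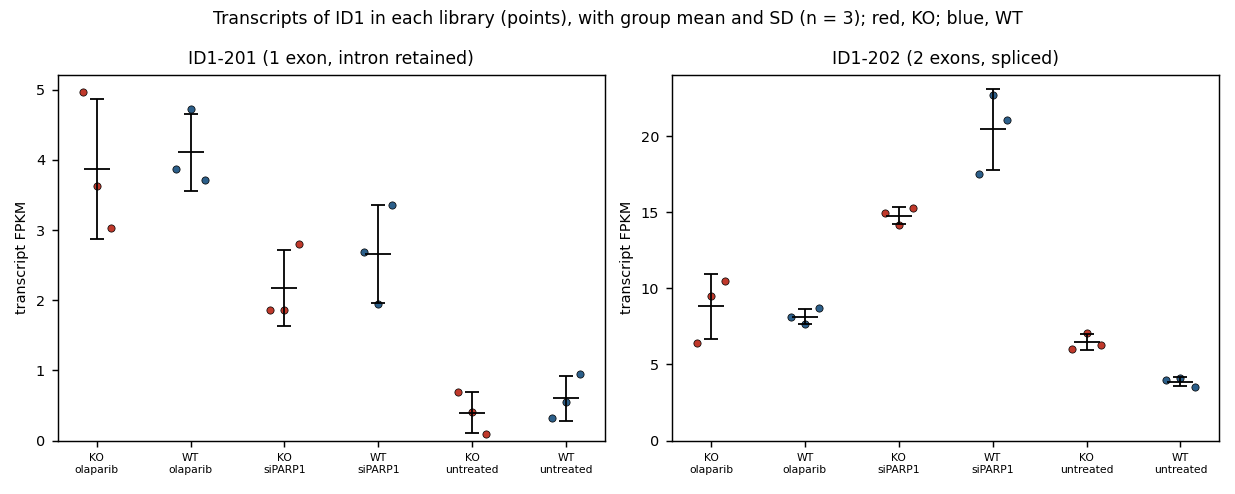
FPKM of the intron-retaining ID1-201 (left) and the spliced ID1-202 (right) in each library (points; red, knockout; blue, wild type), with the mean and SD of each group of 3. ID1-201 was highest under olaparib, with group means of 3.87 FPKM in knockout and 4.11 FPKM in wild-type cells, whereas ID1-202 was highest under siPARP1.

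ID2 (ENSG00000115738, chromosome 2, 8678845 to 8684453, plus strand) had treated levels that overlapped between the genotypes and untreated levels that did not. Knockout cells had 21.8, 23.8 and 22.8 FPKM under olaparib and 16.8, 19.2 and 15.5 FPKM under siPARP1, against 3.42, 3.28 and 3.24 FPKM without treatment. Wild-type cells had 22.9, 22.9 and 21.1 FPKM under olaparib and 17.8, 16.6 and 17.2 FPKM under siPARP1, against 5.53, 5.08 and 4.98 FPKM without treatment. Treated and untreated libraries did not overlap, and the untreated knockout libraries all lay below the untreated wild-type ones. Under olaparib ID2 rose 6.88-fold in knockout cells (log2 2.46, SE 0.066, limma adjusted p = 1.06e-12) and 4.29-fold in wild-type cells (log2 1.91, adjusted p = 1.94e-11). The increase under siPARP1 was 5.18-fold in knockout cells (log2 2.07, adjusted p = 5.41e-12) and 3.31-fold in wild-type cells (log2 1.56, adjusted p = 1.60e-10). Without treatment, ID2 in knockout cells was 63.7% of the wild-type level (log2 -0.52, adjusted p = 5.71e-05).

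Both ID2 responses were larger in knockout cells, with an interaction of 0.55 for olaparib (SE 0.094, limma adjusted p = 0.00523) and 0.51 for siPARP1 (adjusted p = 0.00521). Neither was lost in any of the 21 alternatives run for it. The treated genotypes did not differ past the threshold, with a log2 of 0.03 (adjusted p = 0.841) when given olaparib and of -0.01 (adjusted p = 0.952) when given siPARP1. ID2-203, spliced from 3 exons, held 85.1 ± 1.29% of ID2 in olaparib-treated knockout cells and 65.7 ± 6.94% in untreated knockout cells, and it was itself lower in untreated knockout than in untreated wild-type cells (log2 -0.65, adjusted p = 0.000458), a comparison in which 2.5% of transcripts were called. An antisense gene, ID2-AS1, overlaps ID2 on the other strand at a mean of 0.583 FPKM; the strand setting of the counting is unknown here, so reads from the pair cannot be told apart.

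ID3 (ENSG00000117318, chromosome 1, 23557918 to 23559794, minus strand) separated the treatments. Under siPARP1 it measured 7.86, 8.43 and 9.10 FPKM in knockout cells, against 1.54, 1.87 and 0.970 FPKM in untreated knockout cells. In siPARP1 wild-type cells it measured 11.3, 10.6 and 11.8 FPKM, against 1.26, 1.82 and 1.20 FPKM in untreated wild-type cells. The siPARP1 libraries were far above the untreated ones in both genotypes. Under olaparib the values were 1.64, 2.30 and 1.98 FPKM in knockout and 0.945, 1.95 and 1.55 FPKM in wild-type cells, which overlapped the untreated libraries. Under siPARP1 ID3 rose 5.79-fold in knockout cells (log2 1.96, SE 0.158, limma adjusted p = 9.49e-08) and 7.88-fold in wild-type cells (log2 2.34, adjusted p = 1.65e-08). In wild-type cells 12 of the 15764 tested genes had a larger log2 change, and in knockout cells 51 did. Olaparib did not move ID3 past the threshold in knockout cells (log2 0.28, adjusted p = 0.156) or in wild-type cells (log2 0.02, adjusted p = 0.936). Knockout and wild type under siPARP1 did not differ past the threshold (log2 -0.37, adjusted p = 0.107), although their libraries did not overlap, and a fit of those groups alone called it (adjusted p = 0.0269).

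The start region of BAMBI is shown because this gene changed in opposite directions under the treatments in knockout cells and holds more matches to the BMP SMAD element GGCGCC than any other of the 10. It comes from the same RefSeq table, with capitals marking GGCGCC and the short SMAD site.
BAMBI promoter, chr10:28677271-28677570, plus strand: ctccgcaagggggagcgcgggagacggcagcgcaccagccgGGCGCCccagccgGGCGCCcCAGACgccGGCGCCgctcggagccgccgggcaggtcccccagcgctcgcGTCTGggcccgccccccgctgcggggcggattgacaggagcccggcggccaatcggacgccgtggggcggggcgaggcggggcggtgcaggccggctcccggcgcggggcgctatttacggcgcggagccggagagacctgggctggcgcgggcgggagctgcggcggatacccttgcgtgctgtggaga
GGCGCC occurs at positions -209, -196 and -181 from the start, and the short SMAD site at -189 (as CAGAC) and -140. At least 1 GGCGCC is found in 19.2% of all 35116 promoters. The share with 3 was not counted, and 80% of the bases in the BAMBI window are G or C. BMP4 holds 2 at the first of its 3 annotated starts and BMPR2 holds 1, while SMAD6 holds the SMAD palindrome GTCTAGAC, found in 0.202% of promoters, at position -12.

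BAMBI (ENSG00000095739, chromosome 10, 28677342 to 28682939, plus strand) is a transmembrane protein like a type I receptor but without a kinase, and it dampens TGF-beta and BMP signalling. In knockout cells it measured 29.1, 30.9 and 30.7 FPKM under olaparib, against 8.01, 9.14 and 7.38 FPKM without treatment. In wild-type cells it measured 22.5, 22.8 and 21.7 FPKM under olaparib, against 5.16, 4.89 and 5.04 FPKM without treatment. The olaparib libraries stood well above the untreated ones, and knockout stood above wild type in both states. Under olaparib BAMBI rose 3.70-fold in knockout cells (log2 1.77, SE 0.059, limma adjusted p = 1.23e-11) and 4.44-fold in wild-type cells (log2 1.95, adjusted p = 4.48e-12). In siPARP1 knockout cells it measured 5.13, 5.48 and 5.57 FPKM, below all untreated knockout libraries (log2 -0.52, adjusted p = 3.52e-06). The siPARP1 wild-type libraries measured 5.21, 5.29 and 5.23 FPKM, close to the untreated wild-type level (log2 0.05, adjusted p = 0.496). The difference between these siPARP1 responses passed the test (interaction -0.57, SE 0.083, adjusted p = 0.00101). Knockout cells had more BAMBI than wild-type cells without treatment (1.63-fold, log2 0.60, adjusted p = 4.7e-06) and under olaparib (1.35-fold, log2 0.42, adjusted p = 0.000236) but not past the threshold under siPARP1 (log2 0.03, adjusted p = 0.741).

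SMAD7 (ENSG00000101665, chromosome 18, 48919853 to 48952052, minus strand) blocks receptors of the BMP and TGF-beta families and recruits ubiquitin ligases to them. It measured 6.31, 7.36 and 6.44 FPKM in olaparib-treated knockout cells, against 3.94, 5.02 and 4.32 FPKM in untreated knockout cells. In olaparib-treated wild-type cells it measured 3.64, 5.83 and 5.58 FPKM, against 2.75, 3.42 and 2.12 FPKM in untreated wild-type cells. The groups did not overlap, but olaparib-treated wild-type library 1 lay close to the highest untreated one. Under olaparib SMAD7 rose in knockout cells (log2 0.51, SE 0.148, limma adjusted p = 0.0111) and wild-type cells (log2 0.67, adjusted p = 0.00184). With 4.05, 5.23 and 4.23 FPKM, siPARP1 wild-type cells were above the untreated libraries (log2 0.56, adjusted p = 0.00554). The siPARP1 knockout libraries, at 5.67, 5.91 and 5.87 FPKM, also lay above their untreated ones, yet this change missed the threshold (log2 0.33, adjusted p = 0.0701). SMAD7 was higher in knockout than in wild-type cells without treatment (1.60-fold, log2 0.54, adjusted p = 0.0181); leaving out knockout library 2 (adjusted p = 0.074) or wild-type library 3 (adjusted p = 0.0874), or fitting these groups alone (adjusted p = 0.0649), ended this call. The form SMAD7-202, annotated as a retained intron, held 48.8 to 77.7% of SMAD7 in the group means, and the coding form SMAD7-201 held 11 to 30.7%. Neither form was called under either treatment (11.4 to 18.9% of tested transcripts were) or between untreated genotypes (2.5% were). Under olaparib SMAD7-201 changed by a log2 of 0.14 in knockout and 0.26 in wild-type cells (limma adjusted p = 0.753 and 0.519). Under siPARP1 it changed by -0.03 and -0.21 (adjusted p = 0.964 and 0.574). SMAD7-202 changed by 0.49 and 0.75 under olaparib and 0.48 and 0.805 under siPARP1 (adjusted p from 0.0942 to 0.364).

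SMAD6, which competes with SMAD4 for activated BMP SMADs, ranged from 0.193 to 0.457 FPKM in olaparib-treated knockout cells, 0.160 to 0.272 FPKM in olaparib-treated wild-type cells, 0.204 to 0.292 FPKM in siPARP1 knockout cells, 0.0748 to 0.150 FPKM in siPARP1 wild-type cells, 0.115 to 0.219 FPKM in untreated knockout cells and 0.067 to 0.134 FPKM in untreated wild-type cells. In the limma fit without the filter, over 41488 genes, 399 to 9390 genes were called in a comparison. SMAD6 passed in 0 of 11 comparisons, and 2 had an unadjusted p under 0.05. These were knockout against wild type under siPARP1 (log2 0.18, limma adjusted p = 0.107) and olaparib against no treatment in knockout cells (log2 0.18, limma adjusted p = 0.0673). SMAD9, a BMP receptor substrate with weak activity, had its highest level in untreated wild-type cells, at 0.253, 0.186 and 0.312 FPKM. It measured 0.0668, 0.0647 and 0.098 FPKM in olaparib-treated wild-type cells and 0.0873, 0.114 and 0.148 FPKM in siPARP1 wild-type cells. Neither treated group overlapped the untreated one. Knockout cells had 0.0658, 0.1003 and 0.0427 FPKM under olaparib and 0.0418, 0.0443 and 0.0595 FPKM under siPARP1, against 0.152, 0.119 and 0.162 FPKM without treatment, also with no overlap. In the limma fit without the filter SMAD9 was lower in wild-type cells given olaparib (log2 -0.21, adjusted p = 0.000292) or siPARP1 (log2 -0.16, adjusted p = 0.00234), in knockout cells under siPARP1 (log2 -0.13, adjusted p = 0.0122), and in untreated knockout against untreated wild-type cells (log2 -0.13, adjusted p = 0.0333). Under olaparib in knockout cells it missed the threshold (log2 -0.10, limma adjusted p = 0.0565). Of the 41488 genes, 3150 were called lower under olaparib and 3597 under siPARP1 in wild-type cells. In knockout cells 3808 were called lower under siPARP1, and 1546 against wild-type cells without treatment. At these levels a value rests on few reads.

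BMP4 (ENSG00000125378, chromosome 14, 53949736 to 53958761, minus strand), the ligand of the set, measured 6.58, 9.92 and 7.01 FPKM in olaparib-treated knockout cells, against 3.43, 2.76 and 4.05 FPKM in untreated knockout cells. In olaparib-treated wild-type cells it measured 7.13, 7.65 and 7.36 FPKM, against 2.14, 2.35 and 1.81 FPKM in untreated wild-type cells. Olaparib and untreated libraries were apart in both genotypes. The increase was 2.30-fold in knockout cells (log2 0.99, SE 0.136, limma adjusted p = 3.05e-05) and 3.52-fold in wild-type cells (log2 1.44, adjusted p = 8.58e-07). Under siPARP1 the values were 2.42, 2.40 and 1.73 FPKM in knockout cells, lower than without treatment (log2 -0.47, adjusted p = 0.00926). This call was lost without siPARP1 knockout library 3 (adjusted p = 0.0504). In siPARP1 wild-type cells BMP4 measured 1.80, 1.61 and 1.71 FPKM and did not pass (log2 -0.19, adjusted p = 0.255). Untreated knockout cells had more BMP4 than wild-type cells (1.62-fold, log2 0.50, adjusted p = 0.0169), but did not pass when knockout library 3 (adjusted p = 0.078) or wild-type library 3 (adjusted p = 0.0719) was left out, or in a fit of these groups alone (adjusted p = 0.0558).

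BMPR2 (ENSG00000204217, chromosome 2, 202376936 to 202567751, plus strand), a type II receptor that binds BMP ligands and activates the type I receptors, was the most abundant of the 10 genes without treatment. It measured 7.53, 7.02 and 7.01 FPKM in siPARP1 knockout cells, against 13.6, 12.1 and 14.01 FPKM in untreated knockout cells. In siPARP1 wild-type cells it measured 6.62, 6.61 and 6.48 FPKM, against 14.8, 14.1 and 14.2 FPKM in untreated wild-type cells. All siPARP1 libraries lay below all untreated ones. BMPR2 fell to 54.4% of the untreated level in knockout cells (log2 -0.79, SE 0.052, limma adjusted p = 9.32e-09) and to 45.8% in wild-type cells (log2 -1.02, adjusted p = 8.4e-10). BMPR2-202, the 13-exon coding form, fell in knockout cells (log2 -0.81, adjusted p = 9.22e-07) and wild-type cells (log2 -1.05, adjusted p = 8.08e-08). Under olaparib BMPR2 measured 15.2, 14.7 and 14.6 FPKM in knockout cells and 15.5, 15.7 and 16.6 FPKM in wild-type cells. Both olaparib differences were small and called (log2 0.16, adjusted p = 0.0219 in knockout cells, and log2 0.14, adjusted p = 0.0376 in wild-type cells). On the TPM scale neither passed (adjusted p = 0.246 in knockout and 0.204 in wild-type cells). The knockout call also ended without untreated library 2 (adjusted p = 0.113) or olaparib library 1 (adjusted p = 0.0706), and the wild-type call without untreated library 2 or 3 (adjusted p = 0.101 and 0.0901) or olaparib library 2 or 3 (adjusted p = 0.0576 and 0.138).

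**Figure D3:**
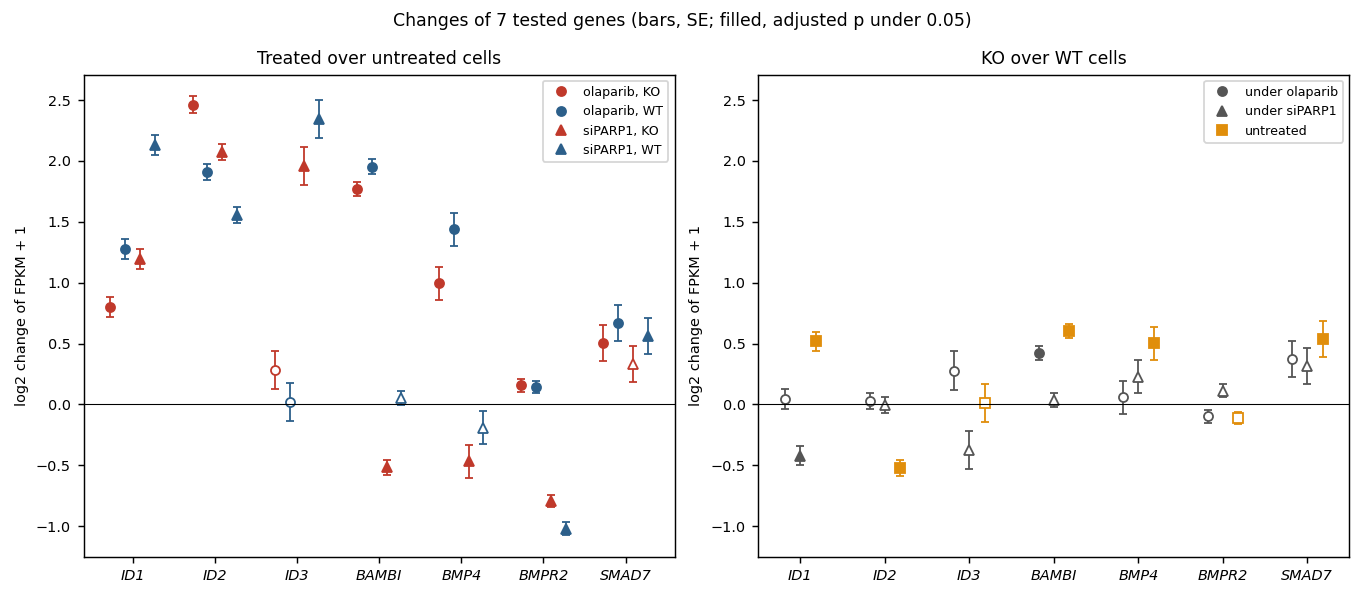
Log2 change of FPKM + 1 for the 7 tested genes, with treated over untreated cells on the left and knockout over wild-type cells on the right; bars are SE and filled symbols have a limma adjusted p under 0.05. ID1, ID2 and SMAD7 lie above 0 under both treatments, ID3 stands out under siPARP1 alone, BAMBI and BMP4 under olaparib, and BMPR2 lies below 0 under siPARP1.

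The knockout comparison without treatment called 5 of the 7 tested genes, 4 higher (ID1, SMAD7, BAMBI and BMP4) and 1 lower (ID2). Of all tested genes 20.5% were called, 9.58% higher and 10.9% lower (1510 and 1717 of 15764 genes, against 1709 and 1399 of 14798 named genes on the TPM scale). Under olaparib 1 of 7 was called (BAMBI, higher), against 12.8% of all genes, 5.68% higher and 7.16% lower. Under siPARP1 it was 1 of 7 (ID1, lower), against 23.1%, 11.8% higher and 11.2% lower. The median log2 difference of the 7 genes was 0.50 without treatment, 0.06 under olaparib and 0.03 under siPARP1, beside -0.00896, -0.0124 and -0.000979 over all tested genes. Interactions with genotype were called for 2 of 7 under olaparib, ID1 (negative) and ID2 (positive), where 3.06% of all genes were called, 1.4% positive and 1.66% negative. Under siPARP1 they were called for 3 of 7, ID1 and BAMBI (negative) and ID2 (positive), where 5.26% were called, 2.74% positive and 2.52% negative. Tested genes within 5 Mb of ID2 had a median difference of 0.10 between untreated knockout and wild-type cells (n = 28), while ID2 itself was lower by 0.52. Near BAMBI (n = 35) and ID1 (n = 72) the medians were -0.05 and 0.04, and near BMPR2 (n = 66) the median was -0.115, with BMPR2 itself at -0.11.

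Olaparib and siPARP1 cells were also set against each other, a comparison added after the values had been seen. The agents and times differ, 24 h for olaparib and 48 h for siPARP1. In knockout cells 6 of 7 genes were called, 4 higher and 2 lower, against 52.2% of all genes, 22.4% higher and 29.7% lower. In wild-type cells the counts were the same, against 51.7% of all genes, 23.4% higher and 28.3% lower. ID3 was lower under olaparib than under siPARP1 by a log2 of 1.67 in knockout cells (-1.67, SE 0.158, limma adjusted p = 5.21e-07) and 2.32 in wild-type cells (-2.32, adjusted p = 1.67e-08). ID1 was lower too, with -0.39 in knockout cells (adjusted p = 0.00084) and -0.86 in wild-type cells (adjusted p = 5.56e-07). BAMBI was higher under olaparib by 2.29 in knockout cells (adjusted p = 7.03e-13) and 1.90 in wild-type cells (adjusted p = 4.78e-12). BMP4 and BMPR2 were also higher under olaparib, by 1.46 and 0.95 in knockout cells and by 1.63 and 1.16 in wild-type cells. ID2 was higher by 0.39 in knockout cells (adjusted p = 0.000172) and 0.36 in wild-type cells (adjusted p = 0.000426); the wild-type call was lost with regional medians removed (log2 0.15, adjusted p = 0.0717). SMAD7 did not differ past the threshold in knockout cells (log2 0.17, adjusted p = 0.346) or wild-type cells (log2 0.11, adjusted p = 0.547).

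Across the 18 libraries the genes fell into unlike patterns, given here as Pearson r of log2(FPKM + 1) without a test, since the libraries share 6 groups. BAMBI and BMP4 ran together (0.959), ID1 ran with ID3 (0.80) and ID2 (0.773), and ID3 ran against BMPR2 (-0.968). The genes most like BAMBI were EPHA2 (0.992), TENT5A (0.988) and RPS27L (0.981). Those most like ID2 were TRIAP1 (0.988), LINC00973 (0.982) and MIGA1 (0.982). The closest to ID1 were MT-TF (0.975), VPS25 (0.966) and CORO1B (0.961), and the closest to BMPR2 were UBXN2A (0.987), EPS15 (0.985) and WARS2 (0.985).

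A list of 73 further BMP pathway genes, chosen by role, had 48 that passed the filter. Under olaparib 16 were called higher and 13 lower in knockout cells, and 14 higher and 11 lower in wild-type cells, where 47.2% and 45.4% of all tested genes were called. For siPARP1, knockout cells had 13 called higher and 15 lower, and wild-type cells 13 higher and 19 lower, where 54.7% and 51.7% of all tested genes were called. On the TPM scale the olaparib balance turned, with 13 higher and 15 lower in knockout cells and 11 higher and 17 lower in wild-type cells. The median log2 change of the list was 0.08 in olaparib-treated knockout and -0.04 in olaparib-treated wild-type cells, and 0.02 in siPARP1 knockout and -0.04 in siPARP1 wild-type cells. The same medians over all tested genes were 0.03 under olaparib in both genotypes and 0.07 under siPARP1 in both.

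Among ligands, GDF15, a stress-induced member of the TGF-beta superfamily, was called higher in all 4 treatment comparisons. The other 2 tested ligands, BMP8B and GDF11, were lower under siPARP1, by -0.66 and -0.49 in knockout cells and -0.74 and -0.63 in wild-type cells (limma adjusted p from 8.03e-07 to 2.55e-05). The mean of GDF15 was 136 ± 4.89 FPKM under olaparib and 76.0 ± 1.07 FPKM under siPARP1 in knockout cells, against 42.5 ± 3.52 FPKM without treatment (log2 1.66 and 0.83). In wild-type cells it was 144 ± 19 FPKM under olaparib and 80.6 ± 5.56 FPKM under siPARP1, against 33.8 ± 1.26 FPKM without treatment (log2 2.06 and 1.23; SD, n = 3). Of the 6 tested receptors, 1 was called higher and 3 were called lower in olaparib-treated knockout cells, and 1 higher and 4 lower in olaparib-treated wild-type cells; under siPARP1 3 were higher in knockout cells and 2 in wild-type cells, with none lower. These counts stand beside 45.4 to 54.7% of all genes called in the same 4 comparisons. Of the 9 tested antagonists, which bind BMPs or activins outside the cell, 5 were called higher and 4 lower in olaparib-treated knockout cells, and 3 and 3 in olaparib-treated wild-type cells. With siPARP1, knockout cells had 1 called higher and 5 lower, and wild-type cells 1 higher and 7 lower.

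The antagonists moved in unlike ways. NOG, which encodes noggin, rose under olaparib to 16.1 ± 0.295 FPKM in knockout cells, against 8.46 ± 0.185 FPKM without treatment (log2 0.85, limma adjusted p = 1.18e-05). In wild-type cells it rose to 12.9 ± 0.159 FPKM, against 4.84 ± 0.571 FPKM (log2 1.25, adjusted p = 2.63e-07). Under siPARP1 NOG was lower, by -0.50 in knockout and -0.45 in wild-type cells (adjusted p = 0.000938 and 0.00227). CHRDL1, a chordin-like BMP binder, fell under siPARP1 to 21.6 ± 0.132 FPKM in knockout cells, against 56.2 ± 1.04 FPKM, and to 19.5 ± 0.646 FPKM in wild-type cells, against 51.8 ± 0.857 FPKM (log2 -1.34 and -1.37). TWSG1, a chordin partner, fell by a log2 of 1.24 in knockout cells (-1.24) and 1.46 in wild-type cells (-1.46), and FSTL1 by 1.17 (-1.17) and 0.83 (-0.83). FST, which encodes the activin and BMP binder follistatin, went the other way under siPARP1, with 12.5 ± 2.55 FPKM in knockout cells, against 3.15 ± 1.01 FPKM (log2 1.71), and 29.7 ± 2.60 FPKM in wild-type cells, against 7.83 ± 0.590 FPKM (log2 1.80).

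Of all tested genes, 25.2% were called higher and 22% lower under olaparib in knockout cells, and 24.9% and 20.4% in wild-type cells. SMAD1, a receptor-activated SMAD, was among 4 called lower of 18 SMADs and regulators under olaparib in each genotype, with 5 called higher. It fell to 2.85 ± 0.279 FPKM in knockout cells, against 7.12 ± 0.463 FPKM without treatment (log2 -1.08, limma adjusted p = 3.45e-06), and to 2.97 ± 0.30 FPKM in wild-type cells, against 7.37 ± 1.83 FPKM (log2 -1.06, adjusted p = 4.33e-06). Under siPARP1 SMAD1 was lower by -0.41 in knockout and -0.49 in wild-type cells (adjusted p = 0.00904 and 0.00281). Of 9 other targets tested, HES1, a transcriptional repressor also driven by Notch, rose under olaparib to 9.75 ± 0.121 FPKM in knockout cells, against 1.502 ± 0.17 FPKM, and to 8.69 ± 0.227 FPKM in wild-type cells, against 2.25 ± 0.0832 FPKM (log2 2.11 and 1.57). TBX3, a T-box repressor, was called higher in all 4 treatment comparisons, with log2 changes of 1.24 and 1.35 under olaparib and 1.95 and 1.34 under siPARP1 in knockout and wild-type cells. Under siPARP1 22.8% of all tested genes were called lower in knockout and 22.3% in wild-type cells. Of the 3 E proteins that ID proteins bind, TCF4 did not pass under siPARP1. It was called higher under olaparib in wild-type cells (log2 0.41, limma adjusted p = 0.0468) but not in knockout cells (log2 0.21, adjusted p = 0.294). TCF3 was lower under siPARP1 in knockout cells (log2 -0.51, adjusted p = 0.0111) and wild-type cells (log2 -0.74, adjusted p = 0.000885), and TCF12 was lower by -0.54 and -0.57 (adjusted p = 0.0245 and 0.0193). In knockout cells TCF12 did not pass when untreated library 2 (adjusted p = 0.0847) or siPARP1 libraries 2 or 3 (adjusted p = 0.065 for each) were left out. Without the filter it did not pass either (adjusted p = 0.0567).

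**Figure D4:**
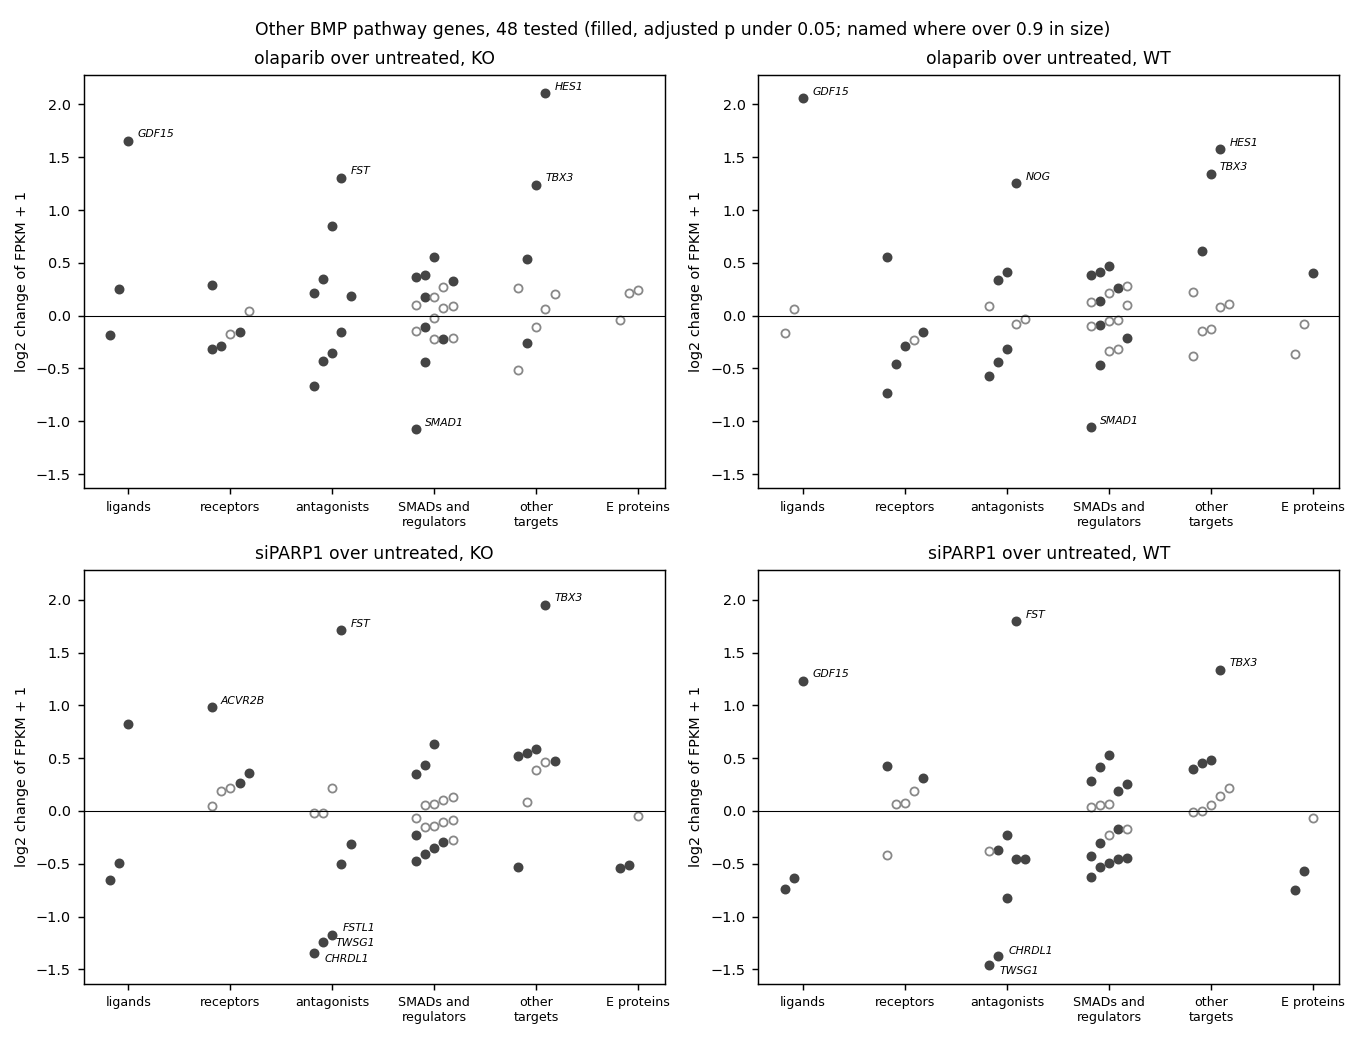
Log2 change of FPKM + 1, treated over untreated, for 48 tested genes of the BMP pathway list by role, in knockout (left) and wild-type cells (right), under olaparib (top) and siPARP1 (bottom). Filled points have a limma adjusted p under 0.05 and names are given past 0.9 in size; HES1 and GDF15 lie highest under olaparib in both genotypes and SMAD1 lowest, while CHRDL1 and TWSG1 lie at the bottom under siPARP1.

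Between genotypes, 10 of the 48 list genes were called higher and 8 lower in knockout cells without treatment, 4 higher and 5 lower under olaparib, and 10 higher and 7 lower under siPARP1, where 20.5%, 12.8% and 23.1% of all tested genes were called. TBX3 was lower in knockout cells in all 3 settings, by -1.01 without treatment, -1.11 under olaparib and -0.39 under siPARP1 (limma adjusted p = 1.01e-07, 6.39e-08 and 0.000769). FST was lower without treatment (log2 -1.12, adjusted p = 8.18e-05) and under siPARP1 (log2 -1.20, adjusted p = 4.38e-05). NOG was higher without treatment (log2 0.70, adjusted p = 0.000262) and under siPARP1 (log2 0.65, adjusted p = 0.00045). CRIM1, a membrane protein that binds BMPs, was higher in all 3 settings, by 0.51 without treatment, 0.20 under olaparib and 0.42 under siPARP1 (adjusted p = 8.69e-08, 0.00128 and 6.88e-07). HIPK2, a kinase that acts with SMAD corepressors, was lower in all 3 settings too, by -0.81 without treatment, -0.50 under olaparib and -0.28 under siPARP1 (adjusted p = 2.4e-08, 5.67e-06 and 0.000553).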

How the data were processed

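MDA-MB-231 cells, TRIM27 knockout or wild type, were measured by RNA sequencing without treatment, under olaparib and under siPARP1, with 3 libraries in each of 6 groups. The values are FPKM per gene and per transcript as deposited by the authors. Tools in the submitters' processing notes are StringTie 2.2.1, fastp 0.23.2, DESeq2 1.38.3, HISAT2 2.2.1 and featureCounts 2.0.3, with the GRCh38 build. The tool that made the FPKM values and the strand setting are not given in the sources used. Per the labels' protocols, mRNA was enriched with oligo(dT) beads. Positions and transcript annotation came from GENCODE 29, symbols from a separate list of gene names, and promoter sequences from RefSeq on GRCh38.p14.

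The 15764 genes, and by the same rule 44746 transcripts, that reached 1 FPKM in 3 or more of 18 libraries were tested on the log2(FPKM + 1) scale. The test was limma 3.58.1 (R 4.3.3), in 1 fit of the 6 groups with a trended prior, 12 residual degrees of freedom and no block. P-values were adjusted by the Benjamini-Hochberg method over every gene tested and called under 0.05. The fit was tested on simulated data. Errors are SD over 3 libraries or SE of the log2 change. P-values measure the spread of these libraries alone, which may be technical. FPKM values hold no read counts, so no interval for depth is given.

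Genes named are the 10 chosen ones, TRIM27, PARP1, genes of the BMP list called in a comparison (at most 6 by size in each direction) and, for each of the 10 that averages 5 FPKM or more, the 3 genes, also averaging 5 FPKM or more, with the highest Pearson r. Values of such a gene in further comparisons are given beside them; TCF4 was named after its values were seen. SMAD6 and SMAD9 come from the fit without a filter. The genes and lists were chosen with earlier results of these data known. Alternatives were a pseudocount of 0.1, a minimum of 5 FPKM, no filter, TPM of named genes, median-of-ratios scaling, sums of transcripts, medians of 10 Mb bins removed (regional medians), a fit of the compared groups alone, the replicate number as a block and each library left out.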

Additional observations from a re-analysis of the deposited data

Results flagged for a closer look

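Genotype differences in the response to a treatment were tested as interactions (change in knockout cells minus change in wild-type cells, limma over 15764 genes). The 5 that passed were those of 2 of the 7 tested genes under olaparib and of 3 under siPARP1. Among all tested genes, 3.06% passed under olaparib and 5.26% under siPARP1. For ID1 the interaction was -0.475 under olaparib (SE 0.114, adjusted p = 0.0369) and -0.94 under siPARP1 (SE 0.114, adjusted p = 0.000192). For ID2 it was 0.55 under olaparib (SE 0.094, adjusted p = 0.00523) and 0.51 under siPARP1 (SE 0.094, adjusted p = 0.00521). For BAMBI it was -0.57 under siPARP1 (SE 0.083, adjusted p = 0.00101). The olaparib interaction of ID1 was lost in 12 of its 21 alternatives, and the others above in none. In all 5 the untreated genotypes also differed, with ID1 and BAMBI higher and ID2 lower in knockout cells, and both interactions of a gene share those untreated libraries.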

How the results depend on the processing

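Among the results for single genes under all alternatives, 1176 kept their side of the threshold with no change of sign, 33 dropped below it, 5 rose past it and 25 changed sign, in 9 results of which 0 were called in limma's fit or under the alternative that turned them. With regional medians removed, the log2 difference was 0.0081 for BMPR2 between untreated genotypes, -0.092 for ID2 between genotypes under olaparib and -0.040 for ID3 under olaparib in wild-type cells. On the TPM scale it was -0.025 for ID3 under olaparib and -0.063 for BAMBI under siPARP1, both in wild-type cells, and -0.0076 for the olaparib interaction of BMPR2; with median-of-ratios scaling BAMBI was at -0.017. With a library left out, the ranges were -0.11 to 0.16 for ID3 between untreated genotypes, -0.12 to 0.18 for ID3 under olaparib in wild-type cells, -0.0018 to 0.11 for ID1, -0.0072 to 0.060 for ID2 and -0.10 to 0.16 for BMP4 between genotypes under olaparib, -0.086 to 0.057 for ID2 between genotypes under siPARP1, and -0.043 to 0.055 for the olaparib interaction of BMPR2. The count of called genes among the 7, knockout against wild type without treatment, was 3 in a fit of those groups alone and 3 to 5 with a library left out, in place of 5. Under olaparib that count was 2 with the replicate block, where SMAD7 passed (adjusted p = 0.0472), in place of 1, and under siPARP1 it was 2 in a fit of those groups alone, in place of 1. The olaparib interaction count of 2 was 1 without the filter, 1 with regional medians removed and 1 to 2 with a library left out. For the BMP pathway list, the count of 9 between genotypes under olaparib was 5 with regional medians removed, and its olaparib interaction count of 4 was 1 to 3 with a library left out. SMAD7 under siPARP1 in knockout cells passed with the replicate block (adjusted p = 0.0231), with regional medians removed (adjusted p = 0.00941) and in a fit of those groups alone (adjusted p = 0.0213). Deviations of same-numbered libraries correlated at -0.0707 to 0.0871 over 45 pairs, so no strong pairing by number showed. Whether same-numbered libraries share a culture or day cannot be told from these values. The block changed no other call of the 7 genes. With unknown depth and 3 libraries a group, small differences in genes near 1 FPKM and below are not resolved.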
